A study of Homo sapiens with 15 samples.

Results

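The BCL2 family holds the proteins that decide whether a cell opens its mitochondria and dies, and 10 of its genes were followed here out of the 22706 in the deposited table: BCL2, BCL2L1, MCL1, BAX, BAK1, BID, BIK, BCL2L11, BBC3 and PMAIP1. They were chosen by gene symbol, as survival and death promoting members, from the authors' table of normalized counts and tests over the 5 groups. All 10 were found there and passed the filter on low values. The choice was made with these counts and fold changes known, and the large difference of BCL2 was among the results already seen. BCL2 is therefore described with no test. For the other 9 genes an adjusted p sets a difference against the spread between replicates and says nothing for the choice of the genes.

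The cells were DLD1, an established human colorectal cancer line. USP7 is a deubiquitinase, an enzyme that takes ubiquitin off other proteins, and the study asked what its loss and its return do to the transcriptome. The KO group was the USP7-KO line without doxycycline. The labels call it DOX-inducible, while the extraction protocol lists a USP7-KO line and a line with the inducible plasmid apart. In column names the KO libraries carry gfpUSP7, as do those of day 1. If the labels hold, KO and the treated groups share the knockout, a GFP-USP7 plasmid (pTREG-BI-USP7) whose promoter answers to doxycycline, and a Tet-ON activator plasmid, kept under G418 selection. If not, the plasmids too differ between the treated groups and KO. The day 1, day 3 and day 9 groups were the inducible line given 1 µg/ml doxycycline for 1, 3 or 9 days to bring USP7 back. The WT group was the parental line with no treatment and no plasmid. Each of the 5 groups had 3 libraries of stranded mRNA, called biological replicates. No label says that they came from separate plates or passages, so the spread behind each p may be partly technical. The sources used here do not say whether the KO line is 1 clone, and WT cells with plasmids or doxycycline were not analysed here.

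In the mitochondrial pathway of apoptosis, survival members such as BCL2, BCL-XL (from BCL2L1) and MCL1 hold the effectors BAX and BAK (from BAK1) in check on the outer mitochondrial membrane. BH3-only members such as BID, BIK, BIM (from BCL2L11), PUMA (from BBC3) and NOXA (from PMAIP1) answer to stress and tip that balance by binding survival members or by activating effectors. Active BAX and BAK form pores, cytochrome c leaves the mitochondria and caspases are switched on. In healthy colon, BCL2 protein is found mainly near the base of the crypts, while BCL-XL and MCL1 are the survival members that most colorectal cancer lines are known to depend on.

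Values are normalized counts, the authors' counts per gene after division by a size factor of each library. Totals ran from 14741094 to 15347043 per library, with 20857 to 21314 genes above 0. USP7 averaged 1389.4 ± 17.5 in KO, 8238.9 ± 375.4 at day 1, 7828 ± 341.2 at day 3, 4787.9 ± 335.7 at day 9 and 3391.8 ± 25.4 in WT (SD, n = 3 each). It fell in KO against WT (log2 difference -1.29, adjusted p = 8.95e-15), and the counts do not separate plasmid from chromosomal transcript. Of 8 epithelial markers 7 were in the table, and CDX1 was not. EPCAM was at 9627.3 or more and CDH1 at 14573.1 or more in every library. KRT8 ran from 33661.7 to 59216.2 and KRT18 from 26733.3 to 47135.5 over the libraries. Lower levels were seen for CDX2 (2211.6 to 3233.6), VIL1 (519.5 to 2239.5) and KRT20 (0.0 to 229.2). The summed level of the 7, mostly KRT8 and KRT18, ran from 136796 to 141254 in KO against 89133 to 90785 in WT. Among markers of other cells, 1 of 5 for leukocytes, 2 of 5 for fibroblasts and 1 of 4 for endothelium were in the table. In column names the 6 libraries of day 3 and day 9 carry another prefix than the other 9. The prefix is called project code here, though the column names do not say what it marks. In any comparison of these days with KO or WT, time on doxycycline and project code cannot be told apart. Day 1 replicate 1 stood apart from the other 2 day 1 libraries. Its mean squared difference from them was 13.3 and 9.52 times what counting noise gives, against 1.49 between replicates 2 and 3. Day 1 results are therefore given with and without it where it changed them. Day 9 replicate 1 stood apart less, by the same measure (5.19 and 4.29 against 2.12).

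BCL2 had 301.9, 300.6 and 312.5 normalized counts in KO, 86.6, 112.1 and 104.7 at day 1, 57.4, 54.7 and 57.7 at day 3, 50.8, 44.6 and 41.8 at day 9, and 32.9, 27 and 24.9 in WT. The 5 groups stood in that order with no overlap between any neighbours. BCL2 (ENSG00000171791) encodes the founding survival protein of the family. Its log2 difference, on the log2(value + 1) scale, was 3.40 for KO against WT (95% confidence interval 3.12 to 3.67), a 10.5-fold higher level in KO on that scale. Set among all 15134 genes tested, this was the 171st largest difference in either direction. Against KO the difference was -1.59 at day 1 (-1.87 to -1.32), -2.41 at day 3 (-2.69 to -2.13) and -2.72 at day 9 (-2.99 to -2.44). Without day 1 replicate 1, the day 1 value was -1.48. The day 1 difference was the 30th largest among all genes tested for that comparison, and BCL2 then stood at 0.332 times its KO level. Day 9 still stood 0.68 above WT on the log2 scale (0.41 to 0.96) and lay below day 3 (-0.31, -0.58 to -0.03). The intervals are not adjusted for the number of genes. Like the ranks, they describe a gene chosen with its difference known and are not tests.

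The monocyte gene CD14, the only leukocyte marker in the table, was also highest in KO: it ran from 35.9 to 47.8 normalized counts in KO, 27.2 to 34 at day 1, 19.9 to 26.9 at day 3, 17.8 to 26.9 at day 9 and 17 to 23.9 in WT. Its part in the level of BCL2 was not tested. The fibroblast pair summed to 58.8 to 97.5 in KO and 64.8 to 80.6 in WT, which overlapped. The endothelial gene VWF ran from 37.8 to 50.8 in KO, 38.3 to 49.8 at day 1, 30.8 to 37.8 at day 3, 28.8 to 56.7 at day 9 and 21.9 to 31 in WT, higher in KO than in WT with no overlap, and its part was not tested either. In bulk RNA, more cells with a transcript and more transcript per cell cannot be told apart.

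**Figure D1:**
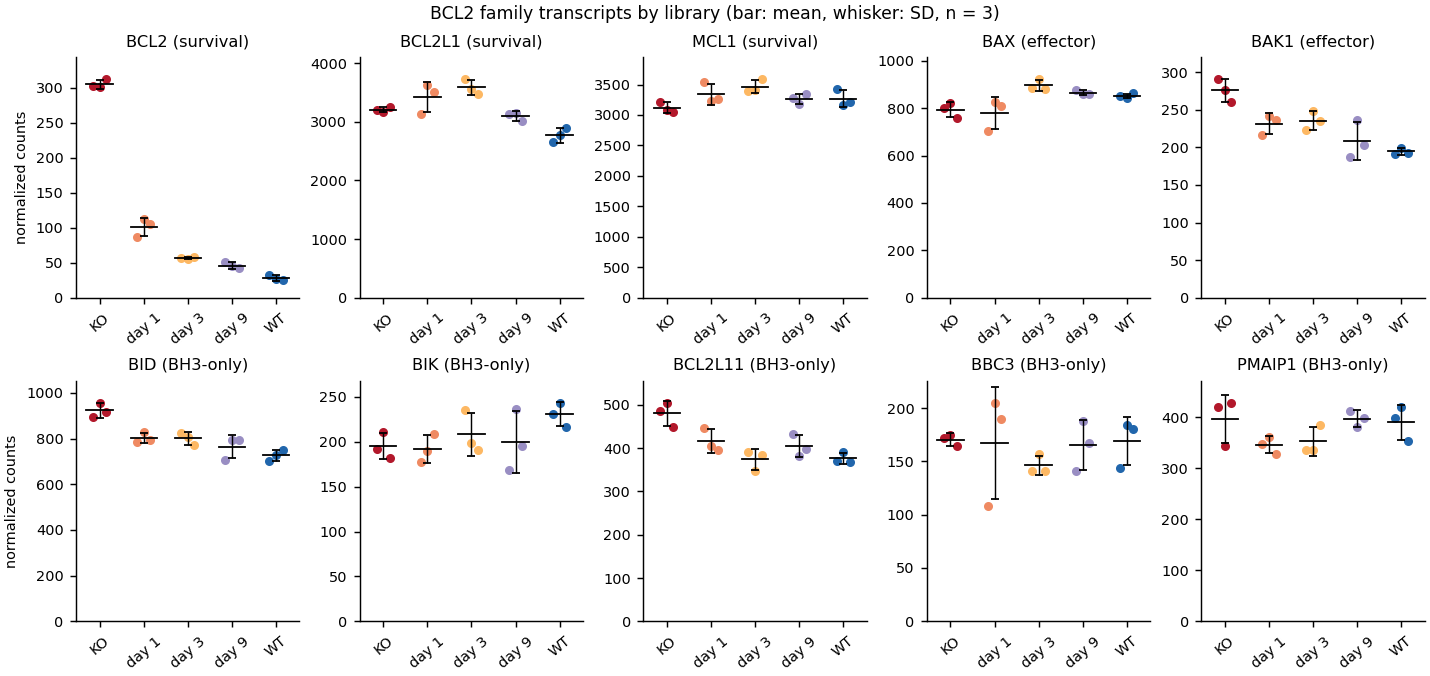
Normalized counts (y axis, from 0) of the 10 BCL2 family genes in each of the 15 libraries by group (x axis). Points are libraries, bars are means and whiskers are SD (n = 3). BCL2 stands apart in KO, with 300.6 to 312.5 there against 24.9 to 32.9 in WT, while the group means of the other 9 genes lie closer together.

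The other 9 members differed far less. A gene is called when its adjusted p (Benjamini-Hochberg over all 15134 genes, limma, two-sided) is under 0.05. In KO against WT 4 of the 9 were called, all higher (BCL2L1, BAK1, BID and BCL2L11), where 24.8% of all genes were called higher and 49.7% in either direction, so the number called is close to that of genes at large. Against KO, 1 of 9 was called at day 1 (BID, lower; 5.97% of all genes were lower), 3 higher (BCL2L1, MCL1 and BAX) and 2 lower (BID and BCL2L11) at day 3 (13.5% and 13.9% of all genes) and 3 lower at day 9 (BAK1, BID and BCL2L11; 13.4% of all genes). Day 9 against day 3 gave 1 (BCL2L1, lower; 4.39% of all genes). Against WT, day 1 gave 3 higher (BCL2L1, BAK1 and BID; 19.9% of all genes) and day 9 gave 1 higher (BCL2L1; 10.4% of all genes). Leaving out 1 library changed some of these counts. The day 1 count was 3 without day 1 replicate 1 and 0 without KO replicate 3 or day 1 replicate 3, and the day 3 count was 3 without KO replicate 1, 2 or 3 or day 3 replicate 1 or 3. The count for day 9 against day 3 was 0 without day 3 replicate 1 or day 9 replicate 3. Against WT, day 1 gave 1 without day 1 replicate 3 or WT replicate 1, and day 9 gave 0 without day 9 replicate 1 or WT replicate 1 or 2. KO libraries serve in KO against WT and in each day against KO, so opposite signs in these comparisons are not independent of each other.

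For orientation, the 3 libraries of 1 group lay wholly to 1 side of the other group in 63.1% of all genes for KO against WT, 26.8% for day 1 against KO, 45.4% for day 3 against KO, 42.1% for day 9 against KO, 27.1% for day 9 against day 3, 48.2% for day 1 against WT and 40.1% for day 9 against WT. The authors' deposited table, which includes BCL2, calls 5 of the 10 for WT against KO, 2 at day 1, 6 at day 3 and 4 at day 9. The share of all genes called there was not computed here, so these counts are not set against genes at large.

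**Figure D2:**
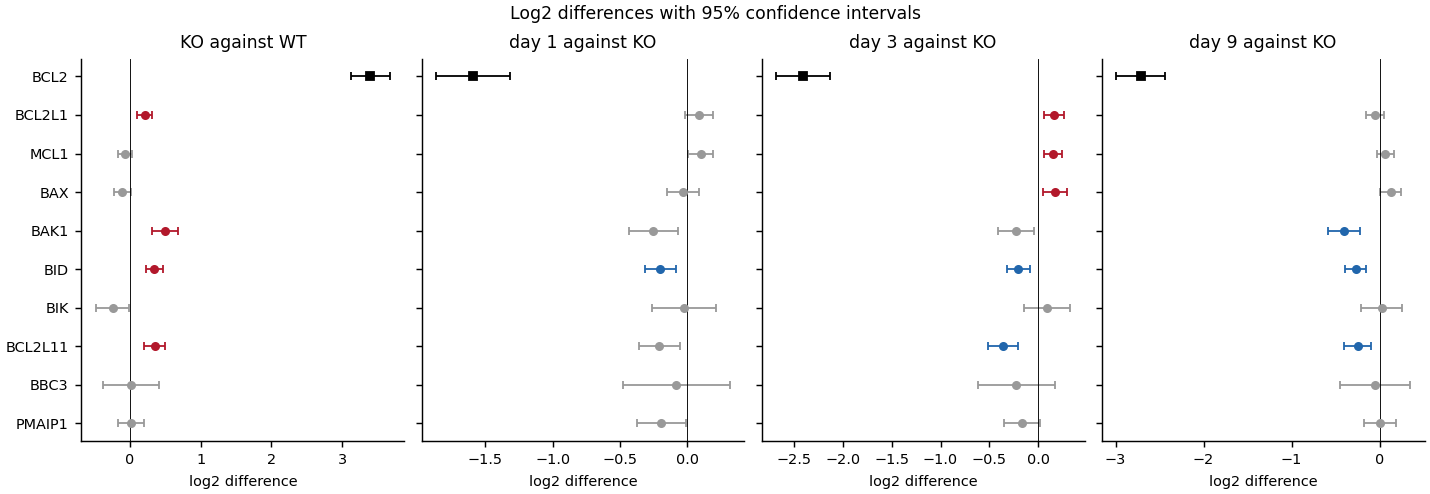
Log2 difference (x axis) with its 95% confidence interval for each of the 10 genes (rows) in KO against WT and in day 1, day 3 and day 9 against KO. Red is called higher, blue called lower, grey not called, and the black square is BCL2, shown with no test at 3.40, -1.59, -2.41 and -2.72. The x axes differ in range between panels.

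Among the survival genes, BCL2L1 (ENSG00000171552, BCL-XL) had 3208.8, 3162.1 and 3262.5 normalized counts in KO, 3128.8, 3621.8 and 3504 at day 1, 3732.9, 3565.7 and 3482 at day 3, 3139.2, 3156.1 and 3007.3 at day 9, and 2649.2, 2769.2 and 2903.7 in WT. All KO libraries were above all WT libraries, and the 5 highest values of all libraries came from day 1 and day 3. It rose in KO against WT by a log2 difference of 0.21 (SE 0.05, adjusted p = 0.00161). Day 3 was above KO by 0.16 (adjusted p = 0.021), a call lost without KO replicate 1 (0.0555), KO replicate 2 (0.0736) or day 3 replicate 1 (0.0997). Day 1 differed from KO by 0.09 (adjusted p = 0.311), and by 0.15 (0.0165) without day 1 replicate 1. Day 9 lay just under KO with no overlap, but the difference was not called (-0.05, 95% interval -0.16 to 0.05, adjusted p = 0.518). Day 9 fell below day 3 by 0.21 (adjusted p = 0.0125), a call lost without day 3 replicate 1 (0.074) or day 9 replicate 3 (0.0709). Against WT the gene was higher at day 1 (0.30, adjusted p = 6.57e-05) and at day 9 (0.16, adjusted p = 0.0259). The day 9 call was lost without day 9 replicate 1 (0.0722) or 2 (0.0909) or WT replicate 1 (0.137) or 2 (0.0727).

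MCL1, a short-lived survival protein, kept within 3055.5 to 3217.8 normalized counts in KO, 3224.3 to 3541.8 at day 1, 3391.4 to 3591.4 at day 3, 3172.9 to 3342.7 at day 9 and 3171.8 to 3424.6 in WT. KO and WT overlapped, with a log2 difference of -0.07 (95% interval -0.16 to 0.03, adjusted p = 0.233). Day 3 was higher than KO by 0.15 (adjusted p = 0.017), a call lost without KO replicate 2 (0.0594) or 3 (0.0713) or day 3 replicate 3 (0.0899). No other comparison called MCL1.

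Levels of different genes can be set side by side only per length. Divided by the length of merged exons in GENCODE 29 (the sources used here do not name the annotation behind the authors' counts), BCL2 stood at 25.9 normalized counts per kb in KO, 8.60 at day 1, 4.81 at day 3, 3.89 at day 9 and 2.40 in WT. BCL2L1 had 969 per kb in KO, 1031 at day 1, 1084.35 at day 3, 936 at day 9 and 837 in WT. MCL1 had 714 per kb in KO, 765 at day 1, 793 at day 3, 746 at day 9 and 748 in WT. Even in KO, then, BCL2 was the lowest of the 10 per length. Of the sum over the 3 survival genes per kb, BCL2 made up 1.52 ± 0.035% in KO, 0.476 ± 0.0517% at day 1, 0.256 ± 0.00576% at day 3, 0.230 ± 0.0213% at day 9 and 0.151 ± 0.0230% in WT (SD, n = 3 each). The sum itself was 1708 ± 22.5 per kb in KO, 1805 ± 39.8 at day 1, 1882 ± 23.6 at day 3, 1686 ± 12.7 at day 9 and 1587 ± 24.6 in WT. BCL2 was thus a small part of the pooled survival transcript in every group.

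**Figure D3:**
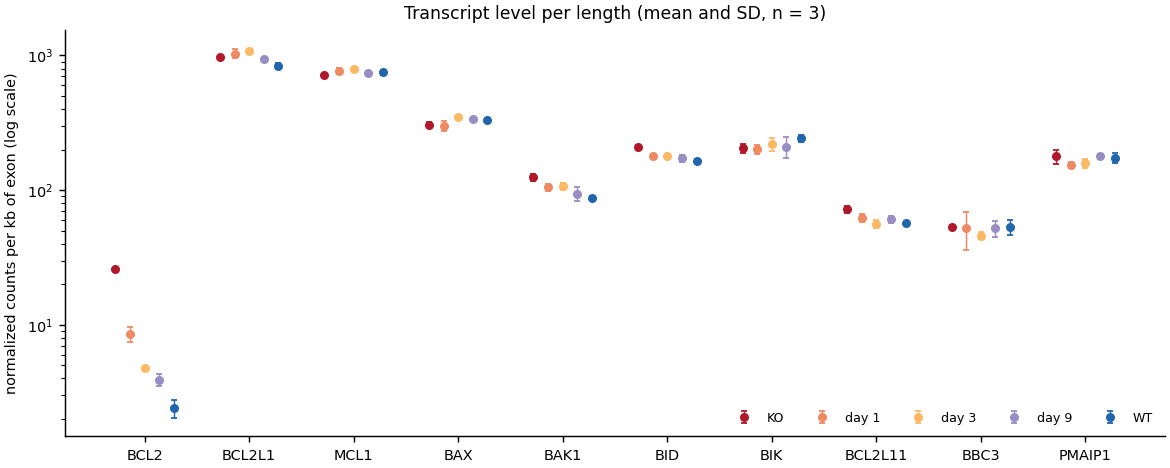
Normalized counts per kb of merged exon (y axis, log scale) for the 10 genes (x axis) in the 5 groups. Points are means and whiskers SD (n = 3). BCL2 is lowest in every group, at 25.9 in KO and 2.40 in WT, and BCL2L1 is highest, at 969 in KO and 837 in WT.

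The effectors BAX and BAK1 did not move alike. BAK1 had 291, 276.7 and 259.8 normalized counts in KO, 216.6, 242.3 and 236.3 at day 1, 223.7, 248.4 and 234.7 at day 3, 187.1, 236 and 203 at day 9, and 191.4, 199.8 and 193 in WT. Every KO library was above every other library. BAK1 rose in KO against WT by a log2 difference of 0.50 (SE 0.09, adjusted p = 8.69e-05), the largest of the 9, and fell at day 9 against KO by 0.41 (adjusted p = 0.00162). Day 1 (-0.25, adjusted p = 0.075) and day 3 (-0.23, adjusted p = 0.0629; 0.0311 with the 6 libraries alone) against KO were not called. Day 9 overlapped WT (0.09, 95% interval -0.09 to 0.28). Day 1 was higher than WT by 0.25 (adjusted p = 0.0294), a call lost without day 1 replicate 2 (0.0943) or 3 (0.0814) or WT replicate 1 (0.0808) or 3 (0.0734).

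BAX, which sits in the cytosol until it is activated, ranged from 759.4 to 822.1 normalized counts in KO, 703.1 to 826.1 at day 1, 880.2 to 923.2 at day 3, 859.8 to 876.9 at day 9 and 844.1 to 862.5 in WT. KO lay just under WT with no overlap, and the log2 difference of -0.10 was not called (adjusted p = 0.147). Day 3 was higher than KO by 0.18 (adjusted p = 0.0281). Day 1 differed from WT by -0.13 (adjusted p = 0.0741; 0.0278 without day 1 replicate 2). The day 3 call was lost without KO replicate 1 (0.0593) or 3 (0.128) or day 3 replicate 1 (0.0524) or 2 (0.103). The ratio of BCL2 to BAX, both per kb, was 0.0847 ± 0.00523 in KO, 0.0285 ± 0.00138 at day 1, 0.0139 ± 0.000762 at day 3, 0.0116 ± 0.00104 at day 9 and 0.00729 ± 0.00111 in WT (SD, n = 3 each).

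Of the 5 BH3-only genes, BID and BCL2L11 rose in KO and the other three were not called. BID, which caspase 8 cleaves to carry the death receptor signal to mitochondria, had 892.9, 957.5 and 917.6 normalized counts in KO, 786.7, 829.1 and 795.5 at day 1, 824.6, 807 and 769.8 at day 3, 706.7, 793.2 and 794.1 at day 9, and 701.7, 726.3 and 751 in WT. All KO libraries stood above the other 12. BID rose in KO against WT by 0.34 on the log2 scale (SE 0.06, adjusted p = 3.90e-05) and was lower than KO at day 1 (-0.20, adjusted p = 0.028), day 3 (-0.20, adjusted p = 0.0102) and day 9 (-0.27, adjusted p = 0.00112). The day 1 call was lost without KO replicate 2 (0.126) or 3 (0.0733) or day 1 replicate 3 (0.0846), and the day 3 call without KO replicate 2 (0.0558) or day 3 replicate 3 (0.0531). Day 1 was still higher than WT (0.15, adjusted p = 0.0455), a call lost without day 1 replicate 2 (0.130) or 3 (0.0773) or WT replicate 1 (0.160) or 2 (0.0976). Day 9 overlapped WT (0.07, 95% interval -0.05 to 0.19).

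BCL2L11 (ENSG00000153094, BIM), a BH3-only protein that binds all survival members, had 486.3, 505.6 and 448.9 normalized counts in KO, 447.3, 405.5 and 395.8 at day 1, 392, 346.8 and 384.9 at day 3, 433, 382.7 and 399 at day 9, and 369.8, 390.6 and 369.1 in WT. The KO libraries were the highest of the 15. It rose in KO against WT by 0.35 (SE 0.07, adjusted p = 0.000491) and fell at day 3 against KO by 0.36 (adjusted p = 0.00093). Day 1 was -0.21 from KO (adjusted p = 0.076), and -0.26 (0.0191) without day 1 replicate 1. Day 9 was lower than KO by a log2 difference of -0.25 (adjusted p = 0.0165), a call lost without KO replicate 1 (0.0562) or 2 (0.0847) or day 9 replicate 2 (0.0798) or 3 (0.0521).

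BIK, a BH3-only protein of the endoplasmic reticulum, ran from 182.1 to 211 in KO, 177.3 to 208.3 at day 1, 191 to 235.6 at day 3, 168.2 to 237 at day 9 and 216.9 to 243.8 in WT. KO lay below WT with no overlap, but the log2 difference of -0.24 (SE 0.11) was not called (adjusted p = 0.083). With the 6 KO and WT libraries alone the adjusted p was 0.0150, and with the 9 libraries of the same project code 0.0404. Against WT, BIK differed by -0.26 at day 1 (adjusted p = 0.067; 0.0316 within the project code) and by -0.22 at day 9 (0.190; 0.0381 without day 9 replicate 2). BBC3 and PMAIP1, whose proteins act early in the response to stress, differed least: BBC3 by 0.02 (95% interval -0.38 to 0.42) and PMAIP1 by 0.02 (-0.16 to 0.20) for KO against WT. BBC3 ran from 164.2 to 175.2 in KO and 143.5 to 183.8 in WT, and day 1 replicate 1 had 107.8 against 205.3 and 189.4 in the other two day 1 libraries. PMAIP1 ran from 343.4 to 429 in KO and 353.1 to 420.6 in WT. Neither was called in any of the 7 comparisons, though without KO replicate 2 PMAIP1 was lower than KO at day 1 (adjusted p = 0.0496) and day 3 (0.0331).

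BAK1, BID and BCL2L11 were thus the 3 members called both higher in KO against WT and lower at day 9 against KO. Both comparisons use the same KO libraries, and the share of all genes called in both ways was not computed here. The day 9 call of BCL2L11 was lost without KO replicate 1 or 2 or day 9 replicate 2 or 3. For each of the 3 genes, sequence before a listed start of transcription is printed. The windows are from RefSeq on GRCh38.p14, cut to the bases that no annotated exon covers, at chr6:33580294-33580526 (minus strand) for BAK1, chr22:17774043-17774292 (minus strand, 1 of 5 listed starts) for BID and chr2:111120664-111120913 (plus strand) for BCL2L11. For BID, the start whose window has the most bases free of exons was taken. Some of the other listed BID starts lie before this window, so for them it is not upstream sequence. Each window is written 5′ to 3′ with every CG dinucleotide in capitals.
BAK1: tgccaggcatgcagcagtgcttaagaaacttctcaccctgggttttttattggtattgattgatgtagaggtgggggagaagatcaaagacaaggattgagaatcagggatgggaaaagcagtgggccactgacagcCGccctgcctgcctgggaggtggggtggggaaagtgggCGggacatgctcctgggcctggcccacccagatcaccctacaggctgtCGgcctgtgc
BID: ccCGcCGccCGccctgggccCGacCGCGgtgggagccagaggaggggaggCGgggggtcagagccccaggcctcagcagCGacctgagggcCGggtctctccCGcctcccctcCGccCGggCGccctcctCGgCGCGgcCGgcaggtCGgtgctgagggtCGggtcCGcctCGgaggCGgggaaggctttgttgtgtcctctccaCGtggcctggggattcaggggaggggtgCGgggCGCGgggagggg
BCL2L11: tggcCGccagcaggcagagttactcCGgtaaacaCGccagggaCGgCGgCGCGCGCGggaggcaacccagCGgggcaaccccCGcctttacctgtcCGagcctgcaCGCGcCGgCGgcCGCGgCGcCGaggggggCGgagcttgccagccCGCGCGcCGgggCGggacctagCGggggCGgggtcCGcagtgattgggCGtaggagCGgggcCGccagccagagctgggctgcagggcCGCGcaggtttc
The 3 windows do not share one base composition. BAK1 has 3 CG in 233 bases, and 75.5% of windows of that length at all listed starts have at least as many. BID has 26 CG in 250 bases, a count that 19.6% of windows reach, and BCL2L11 has 34, which 6.84% reach. A GC box (GGGCGG or CCGCCC, 1 on each strand, each holding a CG) occurs at 2 places in BAK1, 3 in BID (a pair of them overlapping) and 3 in BCL2L11, where 40.4% of windows of 233 bases and 42.6% of windows of 250 bases hold at least 1. The BCL2 window lies wholly within an annotated exon and is not shown. It has 24 CG and no GC box. BCL2L1, also called higher in KO against WT, has 17 CG and 0 GC boxes in 1 uncut window of 250 bases. Another BCL2L1 window, wholly within an annotated exon, has 12 CG and 0 GC boxes. Among members not called in KO against WT, the uncut window of 250 bases has 36 CG and 4 GC boxes for PMAIP1. It has 25 CG and 1 GC box for BAX, and 4 CG and 0 GC boxes for BBC3. Another of the listed BID starts has 4 CG and 0 GC boxes in such a window. A link between these sequences and the transcript levels was not tested.

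Over the 15 libraries, Pearson's r with BCL2 on the log2(value + 1) scale was 0.879 for BID, 0.852 for BAK1 and 0.807 for BCL2L11. BCL2L1 had 0.383, BBC3 0.102 and PMAIP1 0.031, while MCL1 (-0.405), BIK (-0.427) and BAX (-0.538) ran the other way. These values describe 15 libraries that share the 5 groups, and no p is given. Of 316 genes whose mean reached 50 and whose SD on that scale reached 0.5, the 5 nearest in pattern to BCL2 were CRABP2 (r = 0.980), DHRS7 (0.979), MTCL1 (0.971), SLC9A2 (0.971) and MAMLD1 (0.968). CRABP2, a carrier of retinoic acid, averaged 891.8 ± 30.7 normalized counts in KO, 591.3 ± 50.6 at day 1, 383.2 ± 28 at day 3, 350.5 ± 28.7 at day 9 and 269.1 ± 12.7 in WT (SD, n = 3 each). DHRS7, a short-chain dehydrogenase, averaged 3156.1 ± 22.4 in KO and 1148.6 ± 23.8 in WT. SLC9A2, a sodium and proton exchanger, averaged 1523.4 ± 37.8 in KO and 479.5 ± 17.6 in WT.

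**Figure D4:**
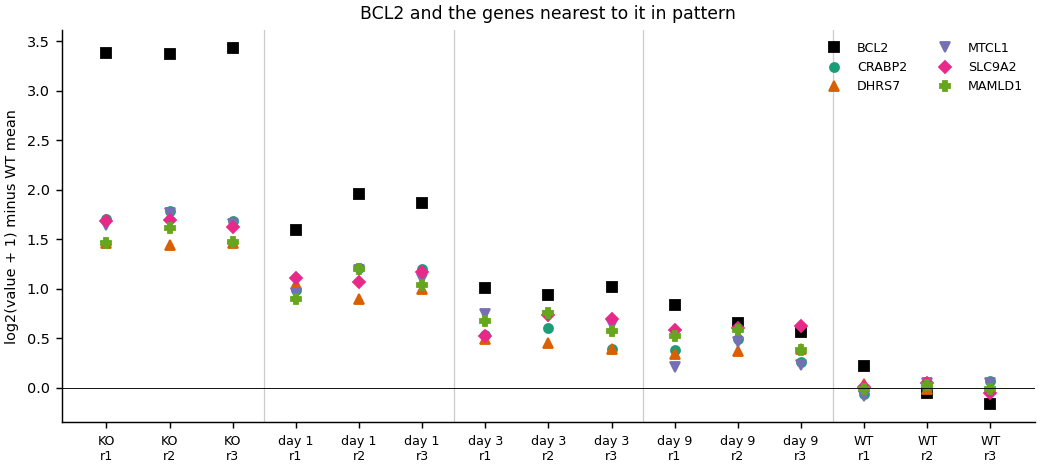
Log2(value + 1) minus the WT mean (y axis) of BCL2 and the 5 genes with the highest r with it, in each of the 15 libraries (x axis, r is the replicate number). The group means of all 6 genes are highest in KO and lower with each later day on doxycycline, and BCL2 spans the widest range, with 3.40 between the KO and WT means.

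Beyond the 10 members, lists of cell death genes were read for their counts. Of 10 other BCL2 homologues and BH3-only genes tested, 4 rose and 3 fell in KO against WT (median log2 difference -0.0049, against 0.00096 over all genes, of which 24.8% rose and 24.8% fell). Only 2 rose without KO replicate 1, 2 or 3 or WT replicate 1. BNIP3L, a mitophagy receptor, fell to 1245.9 ± 88.5 normalized counts in KO, against 1978.4 ± 48.6 in WT (SD, n = 3 each; log2 -0.67, adjusted p = 2.10e-09). BMF, which senses changes at the cytoskeleton, fell to 131.1 ± 7.9 in KO, against 183.1 ± 2.1 in WT (-0.48). HRK, a BH3-only gene best known in neurons, had 12, 14.9 and 18.9 in KO against 1, 1 and 2 in WT, too few for a fold. HRK is among the 4 that rose, although it passed the filter on low values only through KO, where it is high.

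In the list of the apoptosome, caspases and released mitochondrial factors 5 of 16 rose and 3 fell in KO against WT (median log2 0.05), close to the 24.8% of all genes in each direction. DFFA, the inhibitor and chaperone of the caspase-activated DNase, showed the widest range, with 3838.8 ± 95.8 in KO, 2586.9 ± 66.4 at day 1, 1633.1 ± 30.4 at day 3, 1851.6 ± 58.7 at day 9 and 1163.9 ± 12.6 in WT (SD, n = 3 each). Its log2 difference was 1.72 for KO against WT (adjusted p = 4.16e-18) and -1.05 for day 9 against KO (adjusted p = 5.02e-14). CYCS, cytochrome c itself, rose to 2973.9 ± 128.3 in KO, against 2130.9 ± 98.2 in WT, and APAF1, the scaffold it binds, fell to 808.2 ± 23.4 in KO, against 1085.3 ± 54.4 in WT. Of 5 inhibitor of apoptosis genes tested 4 fell and none rose (median log2 -0.21; 24.8% of all genes fell), with BIRC3 at 219.1 ± 29.2 in KO and 332.3 ± 15.1 in WT, BIRC2 at 719.6 ± 9.7 in KO and 882.2 ± 36.4 in WT, and BIRC6 at 4160 ± 49.7 in KO and 4806.6 ± 53 in WT.

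The death receptor pathway, which reaches mitochondria through BID, was the list with the lowest median in KO against WT: 10 of 14 genes fell and none rose (median log2 -0.35), where 24.8% of all genes fell. RIPK1, an adaptor kinase, fell to 401.3 ± 18.9 in KO, against 676.2 ± 17.4 in WT (log2 -0.75, adjusted p = 1.48e-09). CFLAR, the inhibitor of caspase 8, fell to 1006.3 ± 53.5 in KO, against 1559 ± 36.2 in WT (-0.63, adjusted p = 2.27e-09). FASLG had 1, 0 and 2 in KO against 28.9, 34 and 32.8 in WT. It passed the filter on low values only through WT and day 9, where it is high. FASLG is nonetheless among the 10 that fell, and among the genes counted as higher at day 3 and day 9 below. On doxycycline 2 of the 14 rose at day 1 (4.94% of all genes rose; 0 of the 14 with the 6 libraries alone), 9 at day 3 (median 0.27; 13.5% of all genes rose) and 3 at day 9 (median 0.19; 12.4% of all genes rose) against KO, and none fell. RIPK1 had 493.7 ± 26.4 at day 9 and 587.4 ± 12.2 at day 3, and it fell at day 9 against day 3 (log2 -0.25, adjusted p = 0.0118). In that comparison 3 of the 14 fell and none rose, where 4.39% of all genes fell. Only 1 fell without day 3 replicate 1 or 2 or day 9 replicate 3, and 0 without day 3 replicate 3 or day 9 replicate 2. CFLAR had 1261.4 ± 27.1 at day 9 and 1260.4 ± 52.7 at day 3, and FASLG had 19.9, 17.8 and 13.9 at day 9. Of 5 ubiquitin enzymes that act on family proteins 1 rose in KO against WT, near the 24.8% of all genes that rose. It was FBXW7, part of a ligase that marks MCL1 (log2 0.22, adjusted p = 0.0102).

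Transcription factors known to act on BCL2 family genes were read by gene. MYC rose to 4027.6 ± 83.5 in KO, against 1941.1 ± 57.6 in WT (log2 1.05), and day 9 had 2558.1 ± 66.4. TP73 fell to 160.6 ± 8.8 in KO, against 313.3 ± 24.6 in WT (-0.96; SD, n = 3 each). At day 9 against KO, where 12.4% of all genes rose and 13.4% fell, the other lists were read the same way. The 10 other family genes gave 1 higher, BNIP3L (1513.2 ± 58.6 at day 9 and 1245.9 ± 88.5 in KO), and 2 lower, BCL2L15 among them (328 ± 3.3 at day 9 and 404.3 ± 10.1 in KO) (1 lower without KO replicate 2 or 3 or day 9 replicate 1). The 16 genes of the apoptosome list gave 1 higher (0 without KO replicate 2 or day 9 replicate 3) and 2 lower, DFFA and VDAC1, a channel of the outer mitochondrial membrane (4400 ± 316.7 at day 9 and 5228.1 ± 142.8 in KO). The 5 inhibitors gave 1 higher, BIRC6 (0 without KO replicate 1, 2 or 3 or day 9 replicate 1 or 3, or scaled to equal medians). The ubiquitin enzymes gave 0.

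**Figure D5:**
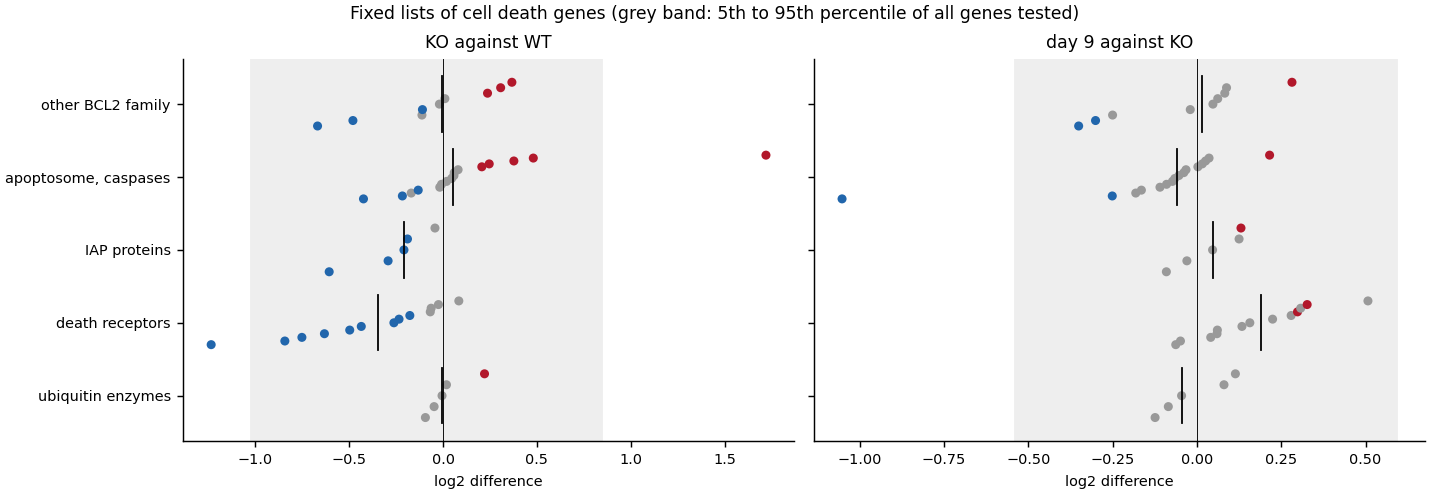
Log2 difference (x axis) of each gene tested in 5 lists (rows), for KO against WT and for day 9 against KO. Red is called higher, blue called lower, grey not called, black bars are list medians and the grey band spans the middle of all genes tested; HRK and FASLG, near 0 counts in 1 group, are in the medians but not drawn. Death receptor genes lie mostly left of 0 in KO against WT (median -0.35) and right of 0 at day 9 (median 0.19).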

How the data were processed

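RNA of 15 DLD1 libraries was read from 1 table of the whole series. The submitters' processing notes name HISAT2 2.1.0, HTSeq, DESeq2 and build hg19, with no roles. Sources used here do not state the annotation or strand setting, so reads of a gene and an antisense partner may not be separated. The deposited values are normalized counts, a signal whose values in each library are whole multiples of a step of 0.9899 to 1.0073, within 1e-06. The log2 fold change and p-value columns in the authors' deposited table were used only for their calls. Of 22706 genes 22463 have a symbol, and 1 was left out for a cell with text.

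Here log2(value + 1) was fitted with limma 3.58.1 (statmod 1.5.0, R 4.3.3; trend and robust) to all 15 libraries with 1 mean per group, for 15134 genes with at least 10 in at least 3 libraries. The script was tested on simulated data. The median standard error of a log2 difference was 0.087. Members and lists were chosen with earlier results of these data known. Named genes were the members, USP7, the up to 3 genes per list with the lowest adjusted p in KO against WT and 2 at day 9 among those called, and the 5 nearest to BCL2. Alternatives were scaling to equal medians, other filters, pseudocounts, moderation or libraries, the replicate number as a block, and each library left out. BCL2A1, BCL2L10 and BNIP3 were not analysed here, and BIRC7 and NAIP were below the filter. A result on 1 listed gene and the counts of its list are not reported here.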

Additional observations from a re-analysis of the deposited data

Results flagged for a closer look

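BCL2L1 is singled out because its level differed between 2 time points of the same treatment. Day 9 was lower than day 3 by a log2 difference of -0.21 (limma, adjusted p = 0.0125), with all 3 day 9 libraries (3139.2, 3156.1 and 3007.3 normalized counts) below all 3 day 3 libraries (3732.9, 3565.7 and 3482). The adjusted p was 0.074 without day 3 replicate 1 and 0.0709 without day 9 replicate 3. Both days carry the same project code. USP7 itself stood at 4787.9 ± 335.7 at day 9 and 7828 ± 341.2 at day 3 (SD, n = 3 each).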

How the results depend on the processing

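The 4 member calls in KO against WT (BCL2L1, BAK1, BID and BCL2L11) and the calls of BAK1 and BID at day 9 against KO held under every alternative run. Over all members, comparisons and alternatives, 935 log2 differences stayed the same, 36 lost a call, 12 gained one, 26 changed sign and 1 moved (BCL2 in KO against WT, 3.23 with a pseudocount of 5). For BCL2, which has no test, the same means the same direction and a shift below a limit set from its SE. For the other members it means the same direction and side of the threshold. Counts for the lists stayed within 1.5 times in 1118 cases and did not in 94. With only the 6 libraries compared, day 1 against KO had 632 genes called and 0 members. Leaving out each library in turn, genes called ran from 955 to 2416 for day 1 against KO (1650 with all) and from 628 to 927 for day 9 against day 3 (1123 with all). For day 3 against KO they ran from 3217 to 3413 (4149 with all). Against WT they ran from 5107 to 6825 at day 1 (6158 with all) and from 2331 to 2962 at day 9 (3303 with all). Members called ran from 0 to 3 for day 1 against KO, 3 to 4 for day 3 against KO, 0 to 1 for day 9 against day 3, 1 to 3 for day 1 against WT and 0 to 1 for day 9 against WT.

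The differences that changed sign were not called. Scaled to equal medians, PMAIP1 at day 9 against KO was -1.19e-06. With a library left out, KO against WT ran from -0.049 to 0.12 for PMAIP1 and -0.093 to 0.085 for BBC3. Day 1 against KO ran from -0.084 to 0.033 for BIK, -0.073 to 0.043 for BAX and -0.25 to 0.21 for BBC3. Day 9 against KO ran from -0.095 to 0.065 for PMAIP1, -0.10 to 0.14 for BIK and -0.15 to 0.057 for BBC3, and day 9 against day 3 from -0.20 to 0.051 for BIK. Day 1 against WT ran from -0.0095 to 0.066 for MCL1 and -0.23 to 0.23 for BBC3, and day 9 against WT from -0.14 to 0.078 for BBC3, -0.042 to 0.083 for PMAIP1 and -0.024 to 0.032 for MCL1. The causes were not tested.

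For pairing, every correlation of same-numbered deviations in a comparison had to be over 0.1, a minimum set here. By that rule same-numbered libraries were not shown to be paired, as 0 of 7 comparisons met it (range -0.03 to 0.25). Of 60 pairs of a library and a group, 29 correlated best with their own number. With 3 libraries per group some would do so by chance. The chance level was not computed here, so the 29 do not decide whether libraries were paired. With the replicate number as a block, 7936 genes were called for KO against WT (7519 without it), with 4 members. For day 3 against KO, 4621 genes were called with the block and 4149 without it. Members called there were 6 (5 without the block), the added one being BAK1 (limma, adjusted p = 0.0441). Count tests were not run. The values are whole multiples of a step in each library, but a check of their unit did not accept them as recovered whole reads. Depth limits BCL2 most in WT, where it rests on 24.9 to 32.9 normalized counts per library.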
